A study of Rattus norvegicus with 8 samples.

Results

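Xanthine oxidase (Xdh), aldehyde oxidase (Aox1), the flavoprotein reductases Por, Cyb5r1 and Cyb5r3, and the cytochrome P450s Cyp1b1, Cyp2e1 and Cyp4b1 form a set of enzymes that can reduce nitrate, nitrite or organic nitrates, or pass electrons to enzymes that do. The 8 genes were picked by symbol, with earlier results of these data known, from the 27742 gene rows of an RNA sequencing study of rat aorta. Each symbol had 1 row. The set was named for this enzyme activity, and activity was not measured: the values are RNA levels.

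The study compared thoracic aorta of wild-type male Sprague Dawley rats after dosing with nitroglycerin (glyceryl trinitrate, GTN) or its vehicle. The nitroglycerin group received 100 mg/kg subcutaneously, 3 times daily over 3 days, a schedule meant to make the vessel tolerant to the drug, and the control group received ethanol on the same schedule. Each group has 4 libraries, made from total RNA after removal of rRNA. By the labels the rats were 12 weeks old and weighed 180 to 200 g, light for males of that age, and the extraction protocol names an adipose type where the tissue label says aorta. The labels do not tie each library to its own rat, so p-values reflect only how far these samples vary, which may be technical.

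Nitroglycerin releases nitric oxide, or a related species, only after an enzyme reduces it, and in the vessel wall mitochondrial aldehyde dehydrogenase is the best known of these enzymes. Xanthine oxidase and aldehyde oxidase carry a molybdenum cofactor at which nitrite and organic nitrates can also be reduced when oxygen is low. Cytochrome P450s use a heme for the same kind of reaction and depend on cytochrome P450 reductase, the product of Por, for electrons, whereas cytochrome b5 reductases such as Cyb5r3 pass electrons from NADH to cytochrome b5 and other heme proteins.

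Values are FPKM, fragments scaled to transcript length and to the library's total, which allow levels to be compared between genes within a library. The smooth muscle genes Myh11 and Acta2 were high in every library, with Myh11 at 108 to 169 FPKM and Acta2 at 1061 to 2401 FPKM, as the aorta label calls for, and the 4 hepatocyte markers with a row summed to at most 0.454 FPKM. Aligned sequence was 7.48 to 8.86 Gb in controls and 6.77 to 8.39 Gb in nitroglycerin libraries. Most genes stood higher in the nitroglycerin group as deposited: the median log2 difference of the 12977 tested rows was 0.30, and 86.6% were above 0. After the libraries were rescaled to a common median ratio the median was 0.01 and 52.4% were above 0, so the differences of the 8 genes are given on both scales, and other genes with a rescaled value where one is stated. Nitroglycerin replicate 1 stands apart in adipocyte markers, with Adipoq (adiponectin) at 15.01 FPKM against 0.0965 to 1.80 in the 7 other libraries, and results that rest on it are given without it too. An exact 0 need not mean absence, because Mt-co1, a mitochondrial gene that every cell uses, was listed at 0 in control replicate 1 and Cd34 at 0 in nitroglycerin replicate 1. No counting interval is given, because read counts were not used here.

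The 250 bases before the RefSeq transcription start (rat build GRCr8, written in the gene's direction) are shown for Xdh, Aox1 and Cyb5r3. Xdh and Aox1 share the molybdenum cofactor and had the largest positive group differences among the tested enzyme genes. Cyb5r3 had the only negative difference as deposited and the most negative one after rescaling. Capitals mark the matches to the motifs searched on both strands: the antioxidant response element core TGACNNNGC, the xenobiotic response element core GCGTG, the AP-1 site TGACTCA and the E-box CACGTG.
Xdh, chr6:27282069-27282318, plus strand: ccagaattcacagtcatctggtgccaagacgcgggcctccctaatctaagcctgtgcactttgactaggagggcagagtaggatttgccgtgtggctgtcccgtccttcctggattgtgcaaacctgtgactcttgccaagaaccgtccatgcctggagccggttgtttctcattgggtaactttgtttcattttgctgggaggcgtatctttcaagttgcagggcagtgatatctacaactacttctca
Aox1, chr9:67073641-67073890, plus strand: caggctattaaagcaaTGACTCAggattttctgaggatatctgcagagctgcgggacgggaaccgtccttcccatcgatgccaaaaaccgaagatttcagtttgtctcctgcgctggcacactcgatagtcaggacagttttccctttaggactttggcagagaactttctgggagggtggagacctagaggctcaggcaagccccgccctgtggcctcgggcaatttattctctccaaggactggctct
Cyb5r3, chr7:116204291-116204540, minus strand: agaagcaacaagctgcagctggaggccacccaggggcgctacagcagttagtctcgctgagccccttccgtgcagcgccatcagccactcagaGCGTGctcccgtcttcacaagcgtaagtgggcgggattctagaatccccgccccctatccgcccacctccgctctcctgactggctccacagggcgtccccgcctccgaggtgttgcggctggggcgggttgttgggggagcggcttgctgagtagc
The Xdh window held none of the 4 motifs. The Aox1 window held 1 AP-1 match, which begins 234 bases before the start, and 4.05% of the 33469 promoters in the RefSeq table have at least 1 such match in the same length. The Cyb5r3 window held 1 GCGTG, at 157 bases before the start, a motif found in 25.9% of promoters. GCGTG also occurred 3 times before Por and 2 times before Cyp1b1, a gene known as a target of the aryl hydrocarbon receptor. TGACNNNGC, present in 10.1% of promoters, occurred once, before Cyp4b1, and CACGTG, present in 5.59%, occurred before none of the 8 genes. The antioxidant core and the AP-1 site can overlap in sequence, but no window held both. These are letter matches in a short window, taken from another build than the one used for the expression table, and binding was not measured.

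Aox1 was by far the most abundant of the set, and the gene with the largest difference between the groups. Aldehyde oxidase oxidises aldehydes and nitrogen heterocycles and is a close relative of xanthine oxidase. Its level was 18.2, 36.3, 27.3 and 16.0 FPKM in control replicates 1 to 4 and 79.9, 41.7, 53.5 and 78.2 FPKM in nitroglycerin replicates 1 to 4. All 4 nitroglycerin libraries lay above the highest control, with control replicate 2 and nitroglycerin replicate 2 nearest to each other. The means were 24.5 ± 9.27 FPKM in controls and 63.3 ± 18.8 FPKM after nitroglycerin (SD, n = 4 per group), a ratio of 2.59. By limma on log2(FPKM + 1) the difference was 1.36 (SE 0.30), above that of 99.6% of tested genes, with a Benjamini-Hochberg adjusted p of 0.0573 over all tested rows, which misses the 0.05 threshold.

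The Aox1 groups also stayed apart after rescaling, at 17.7 to 36.4 against 39.1 to 68.9 rescaled FPKM, with a log2 difference of 0.98 (SE 0.26) and an adjusted p of 0.198 in limma. Nitroglycerin libraries lay above all controls for 24.2% of tested genes as deposited and for 3.78% after rescaling. Aox1 passed the limma threshold when only rows with at least 1 FPKM in all 8 libraries were tested (adjusted p = 0.0347, where 12.8% of genes passed), when rows without an annotated transcript were dropped (0.0432, 8.19% of genes) and without nitroglycerin replicate 2 (0.0497, 2.19% of genes). Its differences are the same or similar in these fits, at 1.36, 1.36 and 1.54. Without nitroglycerin replicate 1 the mean was 57.8 ± 18.6 FPKM (n = 3) and the log2 difference 1.23.

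Xdh, the enzyme that turns hypoxanthine into xanthine and xanthine into uric acid, was expressed far below Aox1. It stood at 3.71, 4.27, 2.46 and 1.86 FPKM in controls and at 9.25, 3.69, 6.40 and 5.64 FPKM after nitroglycerin. Nitroglycerin replicates 1, 3 and 4 lay above every control, and replicate 2 lay just below control replicate 1. The means were 3.08 ± 1.11 and 6.24 ± 2.31 FPKM, a ratio of 2.03. The limma log2 difference was 0.82 (SE 0.27, adjusted p = 0.0837), above that of 96.6% of tested genes, and after rescaling it was 0.50 (SE 0.27, adjusted p = 0.509). Without nitroglycerin replicate 1, whose Xdh value was the highest, the nitroglycerin mean was 5.24 ± 1.40 FPKM (n = 3) and the difference 0.63. The Xdh difference passed the threshold on neither scale.

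**Figure D1:**
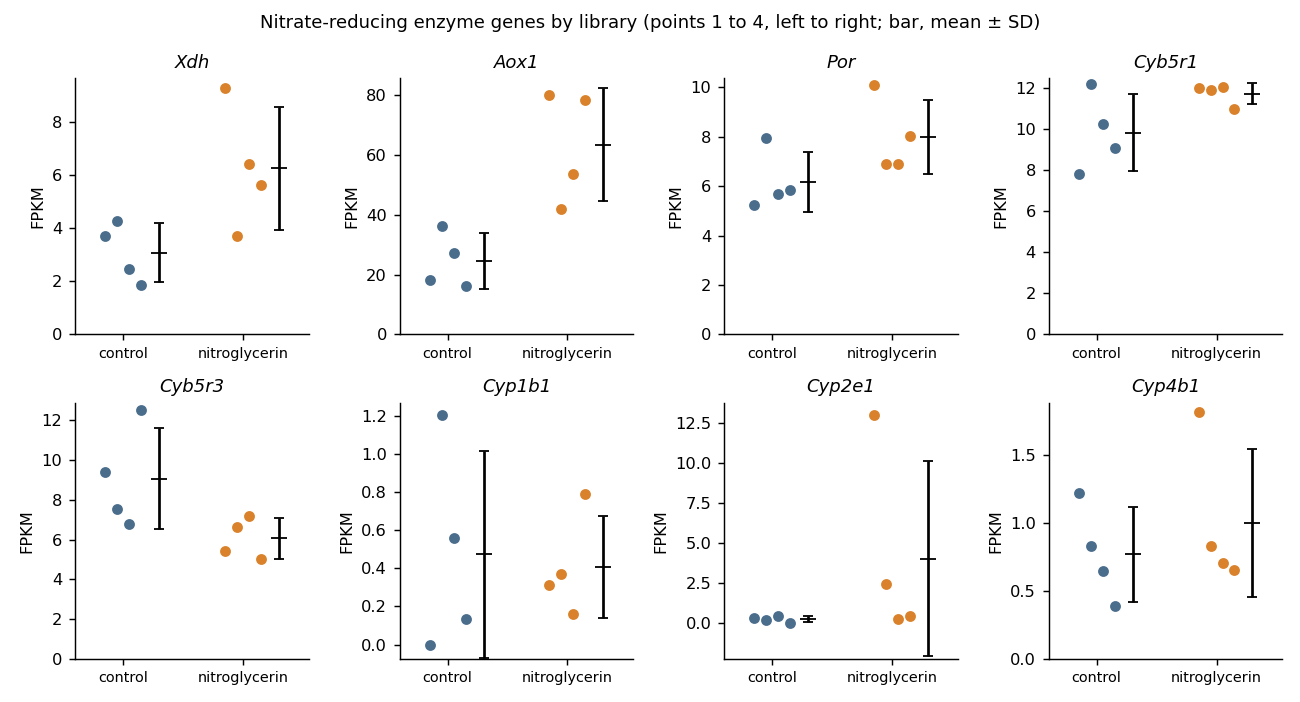
FPKM of the 8 enzyme genes in each library, with 1 panel per gene, points for replicates 1 to 4 from left to right and a bar for the mean ± SD (n = 4 per group). Each panel has its own linear axis; the lower SD bar passes below 0 where the SD exceeds the mean. Aox1 is the gene whose groups do not overlap, Xdh overlaps only through nitroglycerin replicate 2, and Cyp2e1 and Cyp4b1 each have 1 high point, nitroglycerin replicate 1.

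The 3 flavoprotein reductases did not share a direction. Por encodes the NADPH-dependent reductase that serves all microsomal P450s and heme oxygenase. It stood at 5.25, 7.97, 5.67 and 5.84 FPKM in controls and at 10.1, 6.90, 6.92 and 8.04 FPKM after nitroglycerin. Control replicate 2 lay above nitroglycerin replicates 2 and 3, so the groups overlapped. The means were 6.18 ± 1.22 and 7.99 ± 1.51 FPKM, with a limma log2 difference of 0.32 (SE 0.16, adjusted p = 0.179), close to the median of all tested genes, and of -0.01 (SE 0.13, adjusted p = 0.981) after rescaling.

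Cyb5r1 encodes a membrane-bound relative of cytochrome b5 reductase. Its values were 7.79, 12.2, 10.2 and 9.07 FPKM in controls and 12.0, 11.9, 12.0 and 10.9 FPKM after nitroglycerin. The nitroglycerin libraries were close together and all lay below control replicate 2. The coefficient of variation was 18.9% in controls and 4.41% after nitroglycerin. The limma log2 difference was 0.25 (SE 0.14, adjusted p = 0.225) as deposited and -0.11 (SE 0.09, adjusted p = 0.705) after rescaling, so its sign depended on the scaling.

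Cyb5r3, the NADH-dependent cytochrome b5 reductase that also reduces methemoglobin in red cells and the heme of soluble guanylate cyclase in smooth muscle, was lower after nitroglycerin. It stood at 9.42, 7.55, 6.78 and 12.5 FPKM in controls and at 5.43, 6.65, 7.21 and 5.01 FPKM after nitroglycerin. As deposited, nitroglycerin replicate 3 lay above control replicate 3 and the other nitroglycerin libraries lay below every control. The means were 9.07 ± 2.55 and 6.07 ± 1.03 FPKM, a ratio of 0.67. The limma log2 difference was -0.49 (SE 0.19, adjusted p = 0.113), above that of only 2.38% of tested genes. After rescaling all 4 nitroglycerin libraries, at 4.12 to 6.23 rescaled FPKM, lay below the controls, at 7.45 to 13.8, and the difference was -0.83 (SE 0.22, adjusted p = 0.206). Nitroglycerin libraries lay below all controls for 0.478% of tested genes as deposited and for 4.45% after rescaling.

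**Figure D2:**
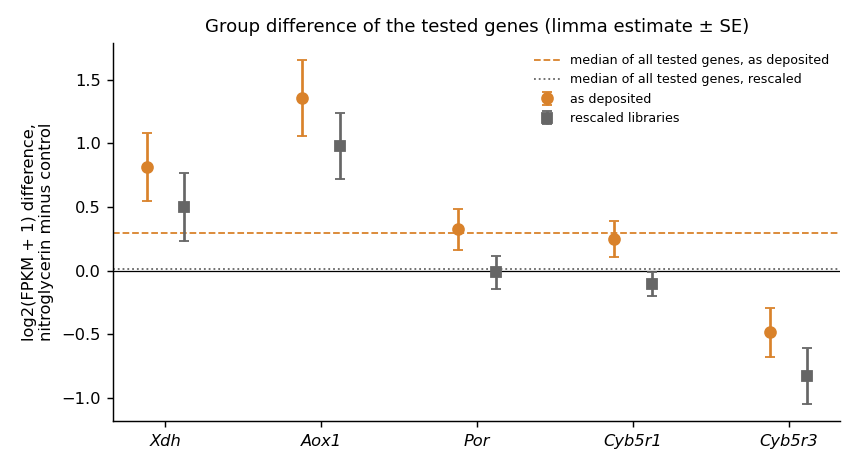
Difference in log2(FPKM + 1), nitroglycerin minus control, for the 5 tested enzyme genes, as the limma estimate ± SE from 8 libraries. Circles are the values as deposited and squares those after rescaling; the dashed and dotted lines are the medians of all tested genes on each scale (0.30 and 0.01). Aox1 and Xdh lie above both lines, Cyb5r3 below both, and Por and Cyb5r1 near the median on each scale.

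The 3 P450 genes were low in most libraries. Each reached 1 FPKM in only 1 or 2 of 8 libraries and stayed outside the limma fit. Cyp2e1, which oxidises ethanol and other small molecules and is best known from liver, was at 0.344, 0.231, 0.441 and 0.0335 FPKM in controls and at 13.0, 2.44, 0.294 and 0.434 FPKM after nitroglycerin. Nitroglycerin replicates 1 and 2 stood above all controls and replicates 3 and 4 within their range. The means were 0.262 ± 0.175 and 4.05 ± 6.06 FPKM, and the SD of the nitroglycerin group exceeded its mean. The difference in mean log2(FPKM + 1) was 1.3 (p = 0.143 by a two-sided exact permutation test of 4 against 4 libraries). Without nitroglycerin replicate 1 the nitroglycerin mean was 1.06 ± 1.20 FPKM (n = 3) and the difference 0.57 (two-sided exact permutation p = 0.286). After rescaling, with all libraries, the difference was 1.15 (two-sided exact permutation p = 0.229).

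Cyp4b1, a P450 of lung and other tissues outside the liver that hydroxylates fatty acids, was at 1.22, 0.830, 0.648 and 0.386 FPKM in controls and at 1.81, 0.828, 0.701 and 0.654 FPKM after nitroglycerin. Only nitroglycerin replicate 1 exceeded the control range. The difference in mean log2(FPKM + 1) was 0.16 as deposited, -0.02 after rescaling and -0.02 without nitroglycerin replicate 1 (two-sided exact permutation p = 0.514, 0.943 and 1). Cyp1b1, which oxidises estradiol and polycyclic hydrocarbons in vessels and other extrahepatic tissue, was listed at 0 in control replicate 1 and stood at 1.21, 0.560 and 0.133 FPKM in the other controls. Its nitroglycerin values of 0.312, 0.372, 0.163 and 0.790 FPKM lay inside the control range, with a difference in mean log2(FPKM + 1) of -0.01 as deposited and -0.09 after rescaling (two-sided exact permutation p = 0.971 and 0.8). Cyp1a1, another target of the aryl hydrocarbon receptor, was listed at 0 in 7 libraries and at 0.0698 FPKM in nitroglycerin replicate 1.

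The general adipocyte markers were also highest in nitroglycerin replicate 1. The adipocyte score, the mean log2(FPKM + 1) of 8 tested general and brown adipocyte markers, was 4.41 in nitroglycerin replicate 1, 2.18 to 2.46 in the other nitroglycerin libraries and 1.64 to 2.69 in controls (two-sided exact permutation p = 0.229 between the groups). The 11 general adipocyte markers, all with a row, summed to 17.5 to 41.8 FPKM in controls and 34.4 to 201.8 FPKM in nitroglycerin libraries. None of the 11 was at 0 in all libraries. Ucp1, the defining gene of brown fat, was 11.5 FPKM in nitroglycerin replicate 1 and 5.10 FPKM in control replicate 1 against 0 to 0.447 FPKM elsewhere. The other brown adipocyte markers were mixed in nitroglycerin replicate 1. Cidea and Ppargc1a were at their highest there (12.4 and 0.362 FPKM), Cox8b was at 0.0399 FPKM, and Elovl3 and Dio2 were listed at 0. Xdh and Aox1 were highest in nitroglycerin replicate 1 too. With the score as a covariate the limma difference of Aox1 was 1.18 (SE 0.33, adjusted p = 0.113) and that of Xdh 0.51 (SE 0.22, adjusted p = 0.159). With both the rescaling and the score they were 0.78 and 0.18. The part of adipose tissue in the Cyp2e1 and Cyp4b1 values was not tested, and for Xdh and Aox1 only these covariate fits were made. In bulk tissue fewer cells of a type and less RNA per cell cannot be told apart.

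No marker list of another cell type passed an adjusted p under 0.05 as deposited. A list at the smallest possible p of 0.0286 could pass only if most of the 9 lists stood there too. This result therefore does not show that cell make-up was alike. In limma, 2 endothelial markers and 1 macrophage marker were called higher as deposited, and 0 of either list lower. The erythrocyte and Schwann cell lists had only 1 tested marker each, Hbb and S100b. The score of 10 tested endothelial markers was 2.41 ± 0.240 in controls and 2.90 ± 0.176 after nitroglycerin, and that of 9 macrophage markers 2.74 ± 0.165 and 3.23 ± 0.193 (two-sided exact permutation p = 0.0286 each, adjusted 0.129 over 9 lists). These are the cells in which xanthine oxidase is often described in vessels. The differences were 0.49 for both as deposited and 0.17 for both after rescaling (two-sided exact permutation p = 0.371 and 0.286). The fibroblast score differed by 0.41 as deposited and 0.03 after rescaling (two-sided exact permutation p = 0.2 and 0.914). The smooth muscle score differed by -0.10 and -0.48 (two-sided exact permutation p = 0.571 and 0.0571). The score of 6 skeletal muscle markers differed by -0.20 and -0.48 (two-sided exact permutation p = 0.0571 and 0.0286). For both muscle scores the adjusted exact permutation p after rescaling was 0.257 over 9 lists. In limma, 1 skeletal muscle marker was called lower as deposited. The fibroblast score includes Cd34, whose listed 0 in nitroglycerin replicate 1 lowers the score of that library. In the other nitroglycerin libraries Cd34 was at 29.0 to 38.0 FPKM. The part of these cell types in the Xdh and Aox1 values was not tested. The mesothelial markers summed to at most 0.339 FPKM.

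**Figure D3:**
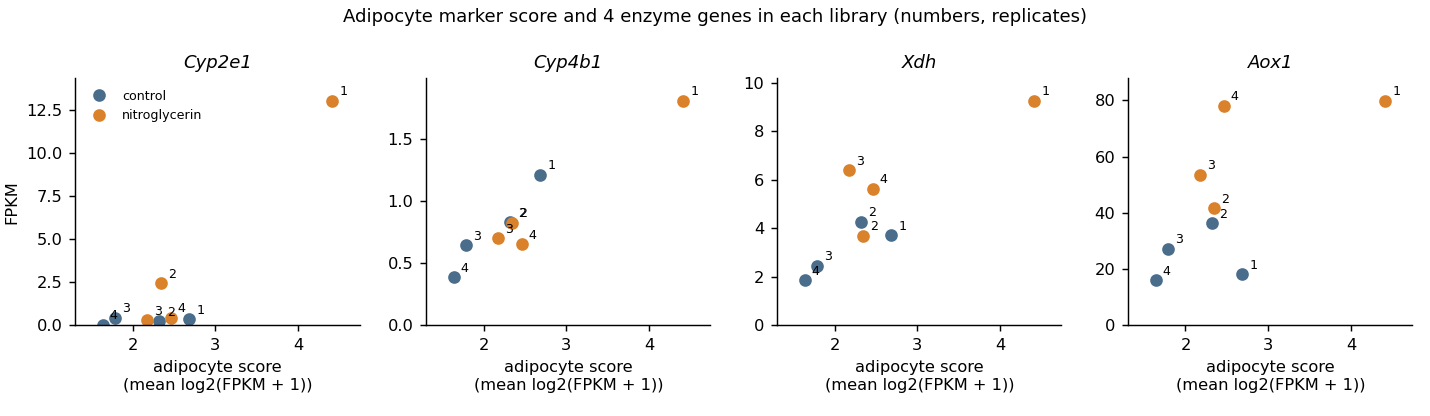
FPKM of Cyp2e1, Cyp4b1, Xdh and Aox1 against the adipocyte score (mean log2(FPKM + 1) of 8 markers) in the 8 libraries, with replicate numbers beside the points. Nitroglycerin replicate 1, at a score of 4.41, is the highest point in every panel.

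Counted as a set, none of the 5 enzyme genes in the limma fit passed an adjusted p under 0.05, against 1.35% of all tested genes as deposited and 0.131% on the rescaled values. With no adjustment and a p under 0.05, 2 were higher (Aox1 and Xdh, where 34.1% of genes were) and 1 was lower (Cyb5r3, where 1.02% of genes were). On the rescaled values Aox1 was higher and Cyb5r3 lower at that level, against 5.5% and 6.44% of genes. The genes tested passed a floor of 1 FPKM in at least 4 libraries, so these counts leave out the 3 P450 genes. Of all 8 genes, 6 had a difference above 0 as deposited and 3 after rescaling, Xdh, Aox1 and Cyp2e1.

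The order of levels within the set was partly different in the 2 groups. Aox1 was above all others in every library, with a mean higher than that of 98.9% of gene rows, and Cyb5r1, Cyb5r3, Por and Xdh followed at 84.8 to 94.9%. In controls Cyb5r1 and Cyb5r3 were not separable, at 9.82 ± 1.86 and 9.07 ± 2.55 FPKM, with Cyb5r1 the higher in 2 of 4 libraries. After nitroglycerin Cyb5r1 was the higher in 4 of 4, and the ranges did not overlap. Por exceeded Xdh in all 8 libraries, with ranges that overlapped only after nitroglycerin. The P450 genes lay at the bottom in controls, where their ranges overlapped one another.

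Ratios between 2 genes of the same library do not depend on how that library is scaled. The 7 genes above 0 in every library form 21 pairs, and the mean log2 ratio of each pair was compared by a two-sided exact permutation test whose smallest possible p is 0.0286. The groups did not overlap for 5 pairs, all at that p, with a Benjamini-Hochberg adjusted p of 0.12, so no pair passed. Most of these pairs include Aox1, whose own FPKM groups did not overlap. How often pairs of other genes do not overlap was not computed. The largest difference among those 5 was for Aox1 to Cyb5r3. The Aox1 to Cyb5r3 log2 ratio was 0.95, 2.26, 2.01 and 0.36 in controls and 3.88, 2.65, 2.89 and 3.96 after nitroglycerin, which corresponds to a mean ratio of 2.63 and 10.2. Leaving out any 1 library kept the difference of 1.95 between 1.60 and 2.24.

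The other 4 of these pairs include 3 with Aox1. Relative to Por, Aox1 had a log2 ratio of 1.93 ± 0.375 in controls and 2.95 ± 0.281 after nitroglycerin, a ratio of 3.80 and 7.74. Relative to Cyb5r1 it was 1.26 ± 0.326 and 2.38 ± 0.487, and relative to Cyp4b1 5.03 ± 0.751 and 6.07 ± 0.650. Cyb5r1 to Cyb5r3, a pair of related reductases, was 0.14 ± 0.590 and 0.96 ± 0.204. The Xdh to Aox1 log2 ratio overlapped between groups at -2.99 ± 0.495 and -3.37 ± 0.346 (two-sided exact permutation p = 0.257, adjusted 0.318). The 2 molybdenum hydroxylases were thus not shown to differ in their change between the groups. Xdh to Cyb5r3 differed by 1.57 with 1 overlapping library on each side (exact permutation p = 0.0571, adjusted 0.171).

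**Figure D4:**
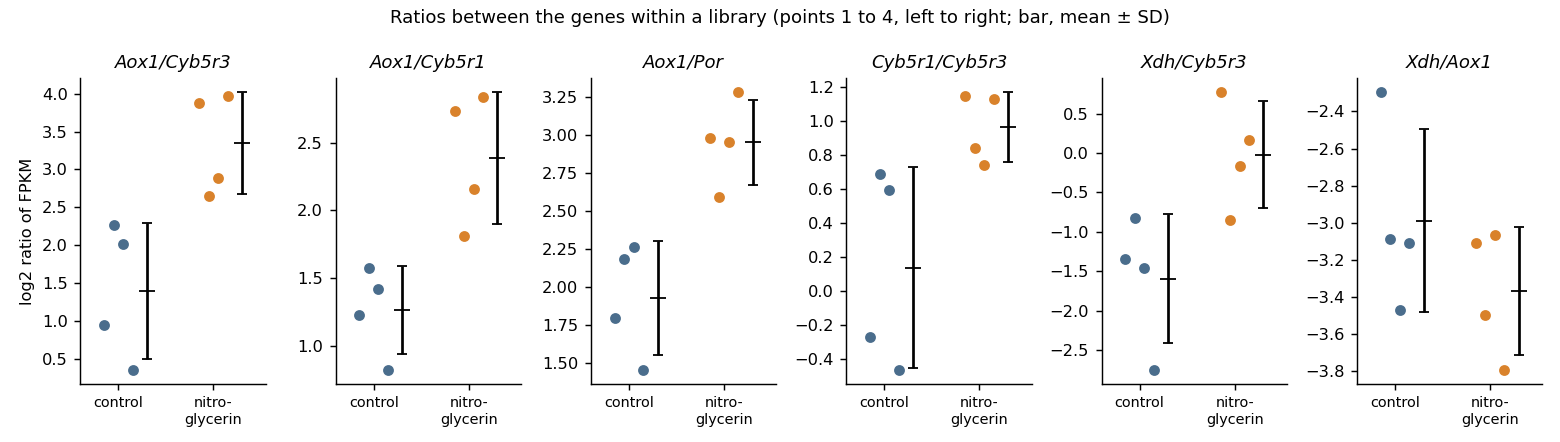
Log2 ratio of the FPKM of 2 enzyme genes within a library for 6 pairs, with points for replicates 1 to 4 and a bar for the mean ± SD (n = 4 per group). The 4 panels on the left show groups that do not overlap; Xdh to Cyb5r3 overlaps by a small margin and Xdh to Aox1 widely. The axes differ between panels and do not start at 0.

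The share of each gene in the summed FPKM of the set does not depend on the scaling either. The summed FPKM of the 8 genes was 46.0, 70.5, 54.1 and 45.9 in controls and 131.8, 74.5, 87.2 and 109.7 after nitroglycerin, as deposited. These nitroglycerin sums were all above the highest control (two-sided exact permutation p = 0.0286). Of single tested genes, 24.2% had all nitroglycerin libraries above all controls as deposited. The mean sums were 54.1 and 100.8 FPKM, of which Aox1 alone was 24.5 and 63.3, so the sum largely follows Aox1. After rescaling the sums of the groups overlapped, with nitroglycerin replicate 2 at 69.8 below control replicate 2 at 70.8. Their means were 60.7 ± 8.26 and 86.8 ± 20.04 (two-sided exact permutation p = 0.0571). Aox1 made up 39.7, 51.4, 50.5 and 34.9% of the sum in controls and 60.6, 56.0, 61.4 and 71.3% after nitroglycerin. The Cyb5r3 share was 17.8 ± 7.65% and 6.47 ± 2.47%, the Cyb5r1 share 18.2 ± 1.35% and 12.2 ± 3.23%, and the Por share 11.5 ± 0.933% and 8.05 ± 0.849%. Each of these 4 shares did not overlap between the groups (exact permutation p = 0.0286, adjusted 0.0571 over 8 genes, which misses the threshold). The Xdh share was 5.68 ± 1.81% and 6.11 ± 1.24% (exact permutation p = 0.714). Shares sum to a fixed total, so a higher share of Aox1 lowers the others. How often shares within other gene sets do not overlap was not computed.

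**Figure D5:**
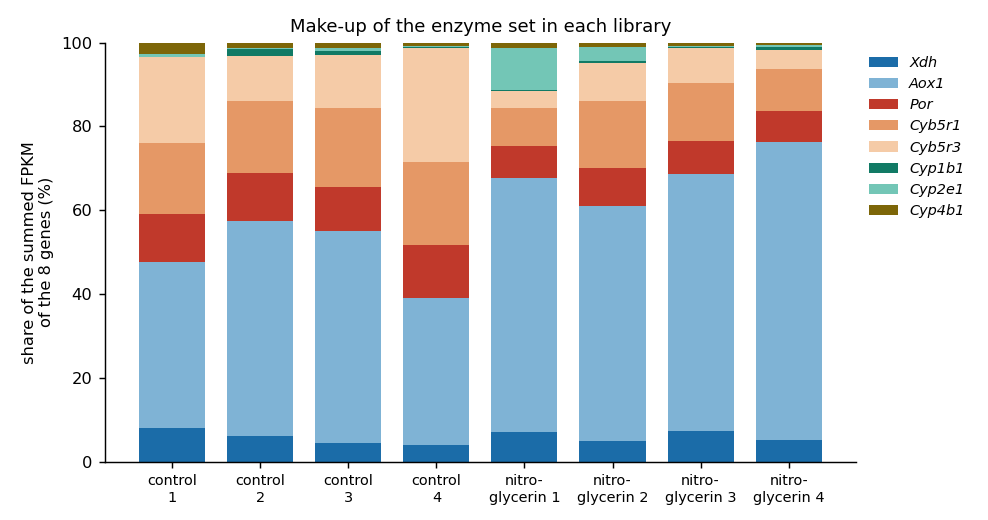
Share of the summed FPKM of the 8 enzyme genes taken by each gene, in percent, with 1 stacked bar per library. Aox1 takes 34.9 to 51.4% in controls and 56.0 to 71.3% after nitroglycerin, and Cyb5r3 10.7 to 27.3% and 4.12 to 8.92%.

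Beyond the 8 genes, 8 lists of related genes held 58 tested genes. Of these, 5 rose and 0 fell in limma as deposited at an adjusted p under 0.05, where 1.29% of all tested genes rose and 0.0616% fell, and none passed after rescaling. The lists were compared by counts and medians only. The median difference of a list is to be read against 0.30 for all tested genes as deposited and 0.01 after rescaling.

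Molybdenum enzymes and the genes that build their cofactor had 8 tested genes, a median log2 difference of 0.58 as deposited and 0.30 after rescaling, and 1 gene that rose. That gene was Nfs1, the cysteine desulfurase that supplies sulfur for iron-sulfur clusters and for the molybdenum cofactor. Nfs1 was 3.92, 4.01, 4.03 and 3.85 FPKM in controls and 6.93, 6.08, 6.72 and 6.87 FPKM after nitroglycerin (limma adjusted p = 0.0413, 0.243 after rescaling). Aox4 is a paralog separated from Aox1 by Aox3 in the RefSeq gene order. Its level was 2.66 ± 1.01 and 5.45 ± 1.28 FPKM (limma adjusted p = 0.0615, 0.276 after rescaling), with all nitroglycerin libraries above all controls. Aox2 was at most 0.0523 FPKM in every library. Reads of near-identical stretches can be split among Aox1, Aox3, Aox4 and Aox2, which lie close together, so the Aox4 and Aox1 values may not be independent. Aox3 had no row, and whether its reads were counted in the Aox1 row was not tested. Mocs2, a subunit of the enzyme that makes molybdopterin, was 2.44 ± 0.401 and 4.29 ± 1.12 FPKM (limma adjusted p = 0.0673). Marc1, a mitochondrial molybdenum reductase, stayed under the floor, at 0.207 to 0.360 FPKM in controls and 2.30, 0.449, 0.424 and 0.524 FPKM after nitroglycerin.

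Purine breakdown and salvage, which supplies the substrate of xanthine oxidase, had 11 tested genes, none of which passed, with a median difference of 0.34 as deposited and 0.01 after rescaling. Pnp, the purine nucleoside phosphorylase that releases hypoxanthine, was 41.5 ± 8.38 FPKM in controls and 60.9 ± 3.84 FPKM after nitroglycerin (limma adjusted p = 0.0706, 0.588 after rescaling). Aprt, which salvages adenine, and Slc29a1, a nucleoside transporter, had adjusted p-values of 0.0841 and 0.0995 in limma.

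Electron transfer partners had 10 tested genes, a median difference of 0.32 as deposited and 0.06 after rescaling, and 1 gene that rose. Mtrr, methionine synthase reductase, a flavoprotein built like Por, was 1.77, 2.04, 1.84 and 1.90 FPKM in controls and 4.37, 3.24, 4.02 and 4.63 FPKM after nitroglycerin (limma adjusted p = 0.0413, 0.0831 after rescaling). Ndor1, another flavoprotein of that family, was 1.38 ± 0.225 and 2.41 ± 0.388 FPKM (limma adjusted p = 0.0615). Cyb5a, the microsomal cytochrome b5 that Cyb5r3 reduces, was 16.9, 18.2, 4.50 and 12.6 FPKM in controls and 30.8, 23.9, 26.2 and 34.1 FPKM after nitroglycerin. All 4 nitroglycerin libraries stood above every control for Cyb5a, and its limma difference of 1.22 did not pass (adjusted p = 0.0724, 0.444 after rescaling).

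Among other P450s, 12 genes were tested of 39 with a row, with a median difference of 0.40 as deposited and 0.14 after rescaling. Cyp20a1, an orphan P450 with no agreed substrate, rose from 4.36 ± 0.447 to 7.59 ± 1.13 FPKM (limma adjusted p = 0.0492, 0.250 after rescaling). Cyp26b1, which clears retinoic acid, was 1.75 ± 0.771 and 3.70 ± 0.697 FPKM (adjusted p = 0.0638 in limma), and Cyp4f6 3.83 ± 0.527 and 5.92 ± 0.820 FPKM (adjusted p = 0.0615). Cyp7a1 and Cyp4a1, which are P450s of liver, were listed at or near 0. Of 5 tested enzymes that take electrons from Por, none passed, and the median difference was 0.32 as deposited and 0.10 after rescaling. Hmox2, the constitutive heme oxygenase, was 5.51 ± 1.39 and 8.0 ± 0.449 FPKM (limma adjusted p = 0.0863), and Cyp51, a sterol demethylase, 1.87 ± 0.487 and 2.53 ± 0.754 FPKM (0.289).

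The aryl hydrocarbon receptor list had 4 tested genes and 1 that rose, with a median of 0.57 as deposited and 0.28 after rescaling. Aldh3a1, an aldehyde dehydrogenase and a target of that receptor, was 6.73, 8.0, 6.45 and 5.74 FPKM in controls and 13.9, 12.4, 11.7 and 15.5 FPKM after nitroglycerin (limma adjusted p = 0.0413, 0.151 after rescaling). Nqo1, a quinone reductase, was 1.78 ± 0.716 and 3.24 ± 0.874 FPKM (limma adjusted p = 0.0909), and Cyp1a1 and Cyp1b1 stayed low as given above.

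The 9 tested genes of other nitrate-converting enzymes had a median of 0.62 as deposited and 0.29 after rescaling, and 2 rose, Aldh3a1 again and Gsta1. Gsta1, a glutathione transferase, was 3.83, 3.83, 4.25 and 3.04 FPKM in controls and 10.2, 7.18, 5.86 and 9.31 FPKM after nitroglycerin (limma adjusted p = 0.0492, 0.245 after rescaling). Glutathione transferases of this class are close in sequence, and reads may be split between them. Gstp1 was 7.18 ± 0.931 and 12.5 ± 2.41 FPKM (limma adjusted p = 0.0581). Of 4 tested proteins that reduce nitrite by other routes, none passed, with a median of 0.32 as deposited and 0.05 after rescaling. They include Cygb (cytoglobin), at 2.76 ± 1.82 and 4.82 ± 1.27 FPKM, and Nos3 (endothelial nitric oxide synthase), at 3.97 ± 1.94 and 5.49 ± 1.03 FPKM, with adjusted p-values of 0.119 and 0.223 in limma.

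The genes whose profile across the 8 libraries was closest to each tested enzyme gene were found by the mean absolute difference of centred log2(FPKM + 1). Xdh was closest to Steap4, a metalloreductase (0.08), Ivd, an enzyme of leucine breakdown (0.10), and Pi16, a marker of adventitial fibroblasts (0.14). Steap4 was 2.11, 2.42, 1.17 and 1.13 FPKM in controls and 6.32, 1.87, 3.76 and 3.05 FPKM after nitroglycerin, with the nitroglycerin libraries in the same order as for Xdh. Aox1 was less closely matched: its nearest genes were Pgap1, Prodh1 and Ddt, at 0.22, 0.22 and 0.23. Pgap1 was listed at 0 in control replicates 1, 3 and 4, and a listed 0 need not mean absence. Prodh1, proline dehydrogenase, was 10.6, 13.2, 18.7 and 9.55 FPKM in controls and 38.3, 25.4, 37.5 and 42.3 FPKM after nitroglycerin (limma adjusted p = 0.0442). Por was closest to Uqcrq and Uqcrc2, subunits of respiratory complex III (0.05 each), and to Peli1 (0.06). Cyb5r1 was closest to Capns1 and LOC100912380 (0.02 each), whose values are equal in 7 of 8 libraries so that reads may be shared, and to Dync1h1 (0.03). Cyb5r3 was closest to Myo10 (0.13), LOC103690078 (0.14) and Thbs3 (0.15). Within the set, Xdh and Aox1 were each other's closest profile, at 0.31, and Por and Cyb5r1 each other's, at 0.13. These likenesses are descriptions over 8 libraries of 2 groups, and the matches of a gene that differs between groups are drawn from other genes that differ.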

How the data were processed

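The 8 rat aorta libraries were made from total RNA depleted of rRNA (Ribo-Zero Gold), per the labels' protocols. StringTie 1.3.0, HISAT2 2.0 and Bowtie 0.12.2, and the builds Rnor_6.0 and mm8, are listed without roles, per the submitters' processing notes. The authors deposited FPKM per gene for 27742 rows, and FPKM, coverage per base and 2 coding-potential scores (CPC and CNCI) for 4686 predicted lncRNA transcripts, per the file headers. The ratio of deposited coverage to FPKM was constant within a library and gave the aligned Gb. FPKM are relative and not counts, so depth per gene is unknown. No lncRNA was tied to any of the 8 genes by symbol, so the planned lncRNA comparison was not made.

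The 12977 rows that reached 1 FPKM in 4 or more libraries were compared on the log2(FPKM + 1) scale computed from the deposited values, which understates changes of low genes, with limma 3.58.1 (trend) in R 4.3.3 and Benjamini-Hochberg adjustment, calling an adjusted p under 0.05. Single values, such as ratios, were tested by exact two-sided permutation over 70 group assignments, whose smallest p is 0.0286. Alternatives covered the pseudocount (0.1), filters, median-of-ratios rescaling (factors 0.742 to 0.996 in controls and 1.07 to 1.22 after nitroglycerin), quantile normalization, the replicate number as a block, an adipocyte score covariate, robust variance, summed rows, and each library left out. The steps were tested on simulated data.

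Named genes are the 8 members, list genes that passed plus up to 3 of lowest p per list, and the 3 closest profiles per tested member. One gene that this rule names is not reported here. Marc1, Aox2, Cyp1a1, Cyp7a1, Cyp4a1, Mt-co1, Cd34 and the markers were named after their values were seen. Members and lists were chosen with earlier results of these data known. Of 147 list entries, 104 distinct genes had a row. Promoters are RefSeq's (GRCr8), and all 8 members matched. Python 3.11.15, SciPy 1.17.1 and matplotlib 3.10.9 were used.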

Additional observations from a re-analysis of the deposited data

Results flagged for a closer look

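A sample is named here where its gap to the nearest other library of its group exceeds Dixon's 95% critical value. Of 124 groups of 4 libraries examined, 9 (7.26%) met this rule, where chance gives about 1 in 20. Among the enzyme genes, Cyp2e1 in nitroglycerin replicate 1 was 13.0 FPKM against 0.294 to 2.44 in the other nitroglycerin libraries, and Cyp4b1 in the same library was 1.81 FPKM against 0.654 to 0.828. The score of general adipocyte markers in that library was 4.50 against 2.16 to 2.42. Cyb5r1 in nitroglycerin replicate 4 was 10.9 FPKM against 11.9 to 12.0, a narrow range. The macrophage score in nitroglycerin replicate 3 was 3.52 against 3.11 to 3.15. In controls, Cygb in replicate 1 was 5.45 FPKM against 1.46 to 2.14. In control replicate 2, Suox (sulfite oxidase) was 0.239 FPKM against 1.24 to 1.32, Uqcrc2 was 21.3 FPKM against 15.9 to 16.4, and Pgap1 was 1.31 FPKM where the other controls were listed at 0.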

How the results depend on the processing

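Of 568 values recomputed under alternatives, 498 were classed as unchanged, which for a difference means the same direction and the same side of the threshold. A count could change a little and be classed so, as with 207 genes under robust variance. With 1 library left out, exact permutation tests of pair ratios, shares and marker scores cannot give a p below 0.0571. With the replicate block, those of ratios and shares cannot give one below 0.125. None of these values passed in the main test, so their side was fixed beforehand in these alternatives. As deposited, 175 of 12977 tested genes passed, against 7 with the pseudocount at 0.1, 26 unfiltered, 1178 when all 8 libraries had to reach the filter, 15 after quantile normalization, 17 once libraries were rescaled, 4 with the adipocyte score added to the fit, 30 with rows summed by symbol, and 5 to 284 with 1 library left out. Chosen after seeing the data, 828 passed among annotated rows, 6 after rescaling without nitroglycerin replicate 1 and 4 after rescaling with the score. The list genes that rose numbered 5 as deposited, 0 at a pseudocount of 0.1, after rescaling, with the score or after quantile normalization, 1 with no filter, 2 with summed rows, 15 with the stricter filter and 0 to 6 with 1 library left out.

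The replicate number as a block gave 0 genes past the threshold, 0 list genes and 0 enzyme genes, also when combined with rescaling (0 genes). Same-numbered libraries of the 2 groups deviated together with r of 0.13, -0.01, -0.01 and 0.12, so the numbers are not taken to pair the samples; replicates 1 and 4 of the controls correlated best with their own number, and replicates 2 and 3 did not. With the block, the 5 non-overlapping pair ratios had an exact permutation p of 0.125. That is the smallest p this block test can give, so no ratio could come under 0.05 in it.

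Of the enzyme genes, Aox1 passed with the stricter filter (1 gene, difference 1.36), among annotated rows (1 gene, 1.36) and without nitroglycerin replicate 2 (1 gene, 1.54), and ranged from 1.19 to 1.57 over single omissions, with an adjusted p of 0.0347 to 0.443 over all limma fits. The number passing was 0 to 1 over single omissions. Por and Cyb5r1 reversed after rescaling (-0.014 and -0.11), after rescaling without nitroglycerin replicate 1 (-0.12 and -0.12), with the score as well (-0.16 and -0.12) and with the block as well (-0.014 and -0.11), and Cyb5r1 after quantile normalization (-0.020). Cyp1b1 reversed with a pseudocount of 0.1 (0.29) and ranged from -0.18 to 0.20 over single omissions, and Cyp4b1 reversed after rescaling (-0.022) and ranged from -0.015 to 0.28. Over single omissions the log2 ratio difference ranged from -0.32 to 0.28 for Por to Cyp4b1 (-0.32, -0.05 and -0.16 without control replicate 1 and nitroglycerin replicates 3 and 4), from -0.45 to 0.23 for Cyb5r1 to Cyp4b1 and from -0.0095 to 0.17 for Por to Cyb5r1. The Xdh share difference ranged from -0.118 (without control replicate 4) to 1.22 percentage points. The brown adipocyte score reversed after rescaling (-0.049) and ranged from -0.015 (without nitroglycerin replicate 1) to 0.46 over single omissions, the smooth muscle score from -0.19 to 0.0072 (without that library), and the erythrocyte score from -0.30 to 0.10, above 0 without control replicate 1 (0.09), control replicate 2 (0.10) or nitroglycerin replicate 2 (0.04). The brown adipocyte score is Cidea alone and the erythrocyte score Hbb alone, the only tested marker of each list. The cause of the changes above was not tested. The lncRNA alternatives were not run. The depth behind each gene is unknown, and 4 libraries a group limit the precision.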
